A study of Rattus norvegicus with 20 samples.

Results

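The genes described are the 6 subunits of the replicative DNA helicase, Mcm2 to Mcm7, with the nucleotide supply and clamp genes Rrm1, Rrm2, Tyms and Pcna, 10 of the 32883 genes in the count table. They were chosen by symbol from a list drawn up with results of these data known: several of them had been seen lower in light-treated than in untreated non-jaundiced pups. The levels and fold changes of that comparison are therefore given as a description, with no test. All 10 genes have 1 row each in the table, and all 10 passed the count filter that left 15272 genes.

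Hippocampus was taken from 20 Gunn rat pups at postnatal day 6 and its polyA RNA was sequenced, 5 pups in each of 4 groups, set by genotype and light. The Gunn rat carries a loss-of-function mutation in the liver enzyme that conjugates bilirubin, so that homozygous pups (jj) become jaundiced while heterozygous pups (Nj, written Jj in part of the labels), which also carry the mutant allele, do not. Untreated pups of each genotype received no phototherapy (PT), and treated pups of each genotype received LED light from day 4, 12 h in all, switched on and off every 3 h. One hippocampal lobe was used per pup, so each value is an average over all its cells, and fewer cells of a type and less RNA per cell cannot be told apart. Library totals ran from 16882652 to 27112749 reads. Sample titles carry a prefix of unstated meaning that follows the groups (J13, J14 and J15 in untreated Nj, J17 in untreated jj, J18 in both treated groups). Prefix and light therefore cannot be told apart, nor can prefix and genotype among untreated pups. The 8 markers of hippocampal neurons, among them Prox1 and Zbtb20, summed to between 688 and 875 CPM (read counts scaled to the size of each library) over the 20 libraries. Ttr, the transthyretin gene of the neighbouring choroid plexus, ran from 3.57 to 9662 CPM and passed 1000 CPM in 7 libraries, 1 in each untreated group, 2 in treated Nj and 3 in treated jj pups.

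As background, the Mcm2 to Mcm7 proteins form a ring that is loaded onto replication origins before S phase by the origin recognition complex with Cdc6 and Cdt1, and that unwinds DNA once Cdc45 and the GINS proteins join it. Ribonucleotide reductase, built from the large subunit Rrm1 and the small subunit Rrm2, makes deoxyribonucleotides, and thymidylate synthase (Tyms) makes the thymidine nucleotide. PCNA is the sliding clamp that tethers DNA polymerases to the template. In the first postnatal week the rat dentate gyrus is still adding granule neurons, and glial precursors divide throughout the hippocampus, so these transcripts are present in a tissue whose neurons are otherwise no longer dividing.

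Promoters are shown for Mcm3, Mcm2 and Mcm6, whose treated and untreated ranges did not overlap in Nj pups, the comparison by which the genes were picked. The promoter of Rrm1, whose ranges did not overlap there either, is described below but not shown. Pcna, whose ranges overlapped there, is shown beside the Mcm genes. In jj pups Mcm3 alone of these passed a test. E2F factors, the transcription factors that switch on S phase genes, bind octamers of the form TTTCCCGC, TTTCGCGC, TTTGCCGC or TTTGGCGC, and these 4 were searched on both strands in 300 bases, from 250 before to 50 after the start of each gene. RefSeq promoters (build GRCr8) were at hand for 8 of the 10 genes, all but Mcm4 and Rrm2, and are written 5′ to 3′ along the gene with octamer matches in capitals. A match is a description of letters, not of binding. The 4 lines give Mcm3 (chr9:30733697-30733996, minus strand), Mcm2 (chr4:122918045-122918344, minus strand), Mcm6 (chr13:42404303-42404602, minus strand) and Pcna (chr3:139955771-139956070, minus strand).
Mcm3: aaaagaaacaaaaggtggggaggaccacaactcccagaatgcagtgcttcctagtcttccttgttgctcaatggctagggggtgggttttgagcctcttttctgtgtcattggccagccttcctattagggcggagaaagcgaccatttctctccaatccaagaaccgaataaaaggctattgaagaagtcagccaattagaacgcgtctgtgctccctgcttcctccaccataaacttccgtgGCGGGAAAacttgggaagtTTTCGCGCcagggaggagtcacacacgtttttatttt
Mcm2: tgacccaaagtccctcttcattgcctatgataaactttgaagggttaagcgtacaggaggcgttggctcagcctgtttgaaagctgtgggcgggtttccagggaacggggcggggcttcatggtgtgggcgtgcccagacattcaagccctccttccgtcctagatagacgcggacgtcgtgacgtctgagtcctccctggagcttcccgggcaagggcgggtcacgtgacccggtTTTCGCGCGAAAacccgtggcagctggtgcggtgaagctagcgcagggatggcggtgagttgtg
Mcm6: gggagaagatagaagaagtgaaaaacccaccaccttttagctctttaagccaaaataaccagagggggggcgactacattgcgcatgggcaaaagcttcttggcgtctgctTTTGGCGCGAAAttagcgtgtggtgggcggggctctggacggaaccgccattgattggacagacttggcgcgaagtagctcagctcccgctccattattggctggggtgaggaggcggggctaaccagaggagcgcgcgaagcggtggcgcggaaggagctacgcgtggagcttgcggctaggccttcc
Pcna: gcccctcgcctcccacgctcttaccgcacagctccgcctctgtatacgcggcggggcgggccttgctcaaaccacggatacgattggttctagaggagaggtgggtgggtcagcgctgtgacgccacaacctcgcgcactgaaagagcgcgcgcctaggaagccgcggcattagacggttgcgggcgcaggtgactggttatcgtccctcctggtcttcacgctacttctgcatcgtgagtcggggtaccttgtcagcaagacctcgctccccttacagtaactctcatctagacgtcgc

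Octamer matches stood in 6 of the 8 promoters: all 5 Mcm promoters at hand (Mcm2, Mcm3, Mcm5, Mcm6 and Mcm7) and Tyms. Rrm1 and Pcna had 0. Matches did not follow the ranges in Nj pups: these did not overlap for Rrm1, and they overlapped for Mcm5, Mcm7 and Tyms. A match stood in 2.14 percent of all 33469 promoters, and in 2.73 percent of the 21842 of protein-coding genes. In Mcm3 the matches begin 6 bases before the start, on the reverse strand, and 13 bases after it. In Mcm2 a pair of matches on opposite strands overlap in the run TTTCGCGCGAAA, which begins 14 bases before the start, and in Mcm6 overlapping matches begin 139 and 135 bases before it. Tyms holds TTTGGCGC, which begins 37 bases before its start.

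The CCAAT box, bound by NF-Y, was searched in the same way. It stood in 6 of the 8 promoters (Mcm3, Mcm5, Mcm6, Mcm7, Rrm1 and Pcna), against 37.5 percent of all and 38.0 percent of protein-coding promoters. Mcm3, Mcm5 and Mcm7 held 3 matches each and Mcm6 held 2, where Rrm1 and Pcna held 1 and Mcm2 and Tyms 0. In Mcm7 an octamer and a CCAAT box share 1 base.

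**Figure D1:**
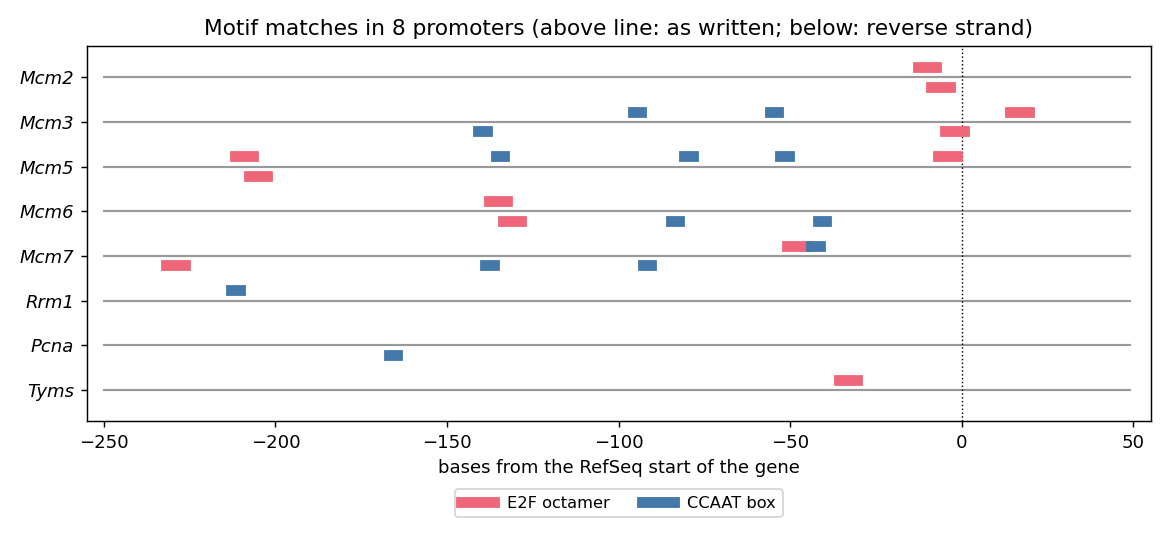
Matches of the E2F octamers and of the CCAAT box in 8 promoters, by distance in bases from the RefSeq start of the gene (horizontal axis), above the line as written and below it on the reverse strand. Mcm2, Mcm3 and Mcm5 have an octamer that begins within 14 bases before the start, and Rrm1 and Pcna have no octamer.

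The comparison of treated with untreated jj pups asks what phototherapy does in jaundiced pups, and its 10 libraries are separate from those of the Nj comparison. The results known when the list was drawn up may have included this comparison too, so its test of the 10 genes is not independent of their choice. Mcm3 fell, and it was the only one of the 10 genes to pass edgeR's quasi-likelihood test. The other helicase subunits, Rrm1 and Rrm2 had differences from -6.44 percent (Mcm5) to -21.1 percent (Rrm2) without passing, and Pcna and Tyms had -2.08 and 0.0531 percent. Of all 15272 genes, 0.124 percent passed as lower in treated jj pups and 0.0393 percent as higher. The CPM ranges of treated and untreated jj pups did not overlap, treated lower, for Mcm3 alone among the 10, against 1.69 percent of all genes.

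Mcm3 (ENSRNOG00000012543) encodes a subunit that sits next to Mcm5 in the ring. In untreated jj pups it stood at 12.3, 11.3, 12.2, 12.6 and 9.96 CPM, and in treated jj pups at 9.36, 9.34, 7.14, 9.35 and 8.54 CPM. Every treated library lay below every untreated one, and counts per library ran from 140 to 247. The mean went from 11.7 ± 1.07 to 8.75 ± 0.96 CPM (SD, n = 5 each), a log2 difference of -0.41 (SE 0.08, 95% interval -0.59 to -0.24, edgeR adjusted p = 0.0459). The call lies at the edge of the threshold: with 1 jj library left out, the log2 difference stayed between -0.46 and -0.34, but the adjusted p ran from 0.0267 to 0.175 and passed in 2 of 10 fits, those without untreated jj 5 or treated jj 1. It was lost without untreated jj 1, 2, 3 or 4 and without treated jj 2, 3, 4 or 5.

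Choroid plexus RNA varied widely among these libraries, with a higher median in treated jj pups, although 0 of its 8 measured markers passed the test. Those 8, of 9 listed, summed to between 45.3 and 10710 CPM in untreated jj (median 101) and to between 104 and 8597 CPM in treated jj pups (median 6025), and Otx2 was below the filter. Without the libraries above 1000 CPM of Ttr, which left 4 untreated and 2 treated jj pups, the log2 difference of Mcm3 was -0.48, as large as with them, with an adjusted p of 0.464. Sums of the 8 neural progenitor markers (Sox2, Nes, Pax6, Hes5 and others) ran from 631 to 1024 CPM in untreated and from 583 to 919 CPM in treated jj pups. Those of the 5 markers of oligodendrocyte precursors ran from 438 to 495 and from 452 to 485 CPM. Both sums overlapped between the groups, but Fabp7 (604 ± 159 and 582 ± 131 CPM) makes up most of the progenitor sum. The median log2 difference of the 8 progenitor markers was -0.054, with Sox2 (0.026) and Pax6 (0.097) positive. Nes, the progenitor intermediate filament, was the most negative of them, with treated values wholly below untreated ones (8.43 ± 0.43 and 6.89 ± 0.36 CPM, log2 -0.29, edgeR adjusted p = 0.201). For 1.69 percent of all genes treated ranges lay wholly below untreated ones in jj pups. Of 6 markers of immature neurons (median -0.175), Sox11 was the most negative, with a log2 difference of -0.32 (adjusted p = 0.128). Stmn2 (0.0053) and Igfbpl1 (0.014) were positive.

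Most meningeal and endothelial markers also had negative differences in jj pups. Of the 7 measured of 8 meningeal markers 6 were negative, with a median log2 of -0.55, among them Slc6a13 (log2 -1.07), Slc22a6 (-0.78) and Col1a1 (-0.71), each at an adjusted p of 0.2 or more, and the sums ran from 399 to 1126 CPM without and from 435 to 963 CPM with light. Lum was the positive one (0.033). Of the 4 measured endothelial markers 3 were negative, with a median of -0.14 and Kdr at -0.39 (adjusted p = 0.124), while Flt1 was positive (0.029). Endothelial sums ran from 204 to 248 CPM without and from 196 to 223 CPM with light. No measured marker of the 10 cell type lists passed in jj pups, where 0.124 percent of all genes passed as lower and 0.0393 percent as higher. The part of cell content in the Mcm3 difference was not tested.

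**Figure D2:**
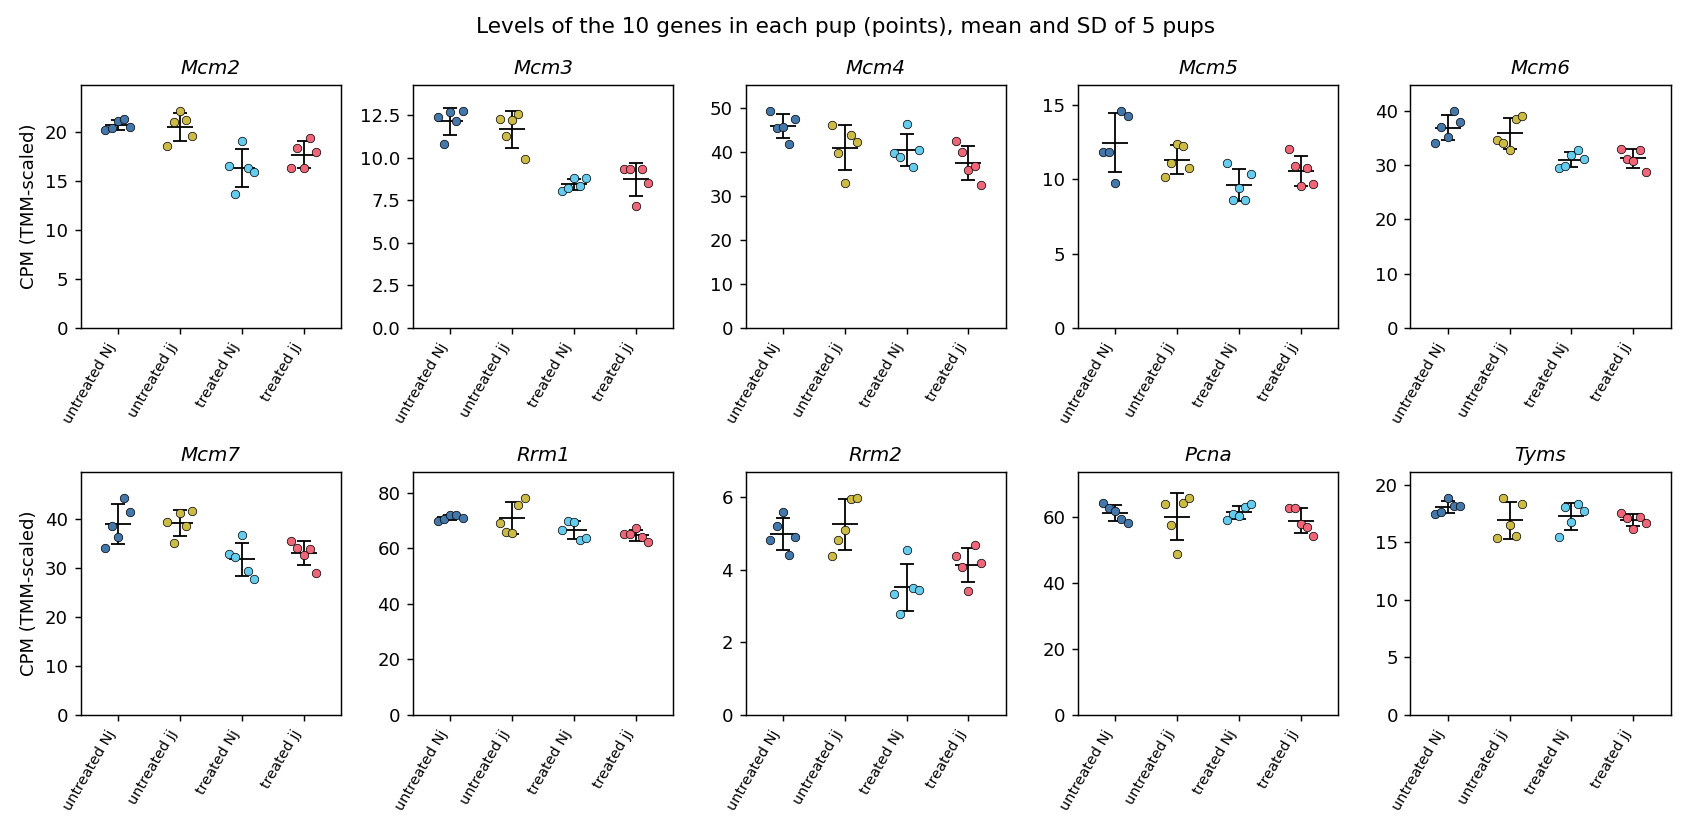
Level of each of the 10 genes in CPM (vertical axis, from 0, a scale of its own in each panel) in every pup (points), by group, with the mean and SD of 5 pups. Mcm3 in treated pups lies below every untreated pup of either genotype, while Pcna and Tyms lie at like levels in all 4 groups.

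The other helicase subunits had smaller differences than Mcm3. Mcm7 (ENSRNOG00000001349), which forms a subcomplex with Mcm4 and Mcm6, had 39.5, 35.2, 41.2, 38.6 and 41.8 CPM in untreated and 35.7, 34.1, 32.8, 33.9 and 29.0 CPM in treated jj pups. Only treated jj 1 reached above the lowest untreated library (log2 -0.25, SE 0.08, edgeR adjusted p = 0.165). Mcm6 (ENSRNOG00000003703) had 34.6, 34.1, 32.8, 38.5 and 39.1 CPM in untreated and 32.9, 31.2, 30.8, 32.8 and 28.6 CPM in treated jj pups. Here treated jj 1 and 4 reached just above untreated jj 3, the lowest untreated library (log2 -0.20, SE 0.06, adjusted p = 0.145). Mcm2 (ENSRNOG00000016316), a subunit that also holds histones at the fork, went from 20.6 ± 1.40 to 17.7 ± 1.35 CPM with overlapping ranges of 18.6 to 22.2 and 16.4 to 19.5 (log2 -0.21, SE 0.08, adjusted p = 0.224).

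Mcm4 and Mcm5 showed the smallest differences of the ring in jj pups. Mcm4 (ENSRNOG00000001833) had 46.2, 39.8, 32.9, 43.9 and 42.3 CPM in untreated and 42.5, 40.1, 36.0, 36.8 and 32.6 CPM in treated jj pups, and the groups overlapped over most of their range. Its log2 difference was -0.13, with a 95% interval of -0.30 to 0.045. The low untreated value belongs to jj 3, the library with the most Ttr of all 20 (9662 CPM), which was also the lowest untreated library for Pcna (48.8 CPM). Mcm5 (ENSRNOG00000014336) had 10.1, 11.1, 12.4, 12.2 and 10.7 CPM in untreated and 12.0, 10.9, 9.54, 10.7 and 9.67 CPM in treated jj pups. Its log2 difference was -0.096, and the interval of -0.31 to 0.12 holds both 0 and the value of Mcm7.

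Among the genes of nucleotide supply, the reductase subunits had negative differences and Tyms had the same mean with and without light. Rrm2 (ENSRNOG00000054286), the subunit whose level limits the enzyme in cycling cells, had 4.37, 4.83, 5.11, 5.96 and 5.99 CPM in untreated and 4.39, 4.07, 3.42, 4.68 and 4.18 CPM in treated jj pups. Treated jj 1 and 4 lay inside the untreated range. Rrm2 is the gene with the fewest reads of the 10, 63 to 133 per library, and its log2 difference of -0.34 carried an SE of 0.13 (adjusted p = 0.251). Rrm1 (ENSRNOG00000045752) had 69.3, 65.9, 65.5, 75.4 and 78.2 CPM in untreated and 65.0, 65.1, 67.5, 63.9 and 62.1 CPM in treated jj pups (log2 -0.13, SE 0.05, adjusted p = 0.23). Treated jj 3 alone lay within the untreated range.

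Tyms (ENSRNOG00000037225), whose promoter holds an octamer, stood at 16.9 ± 1.60 CPM in untreated and 16.9 ± 0.53 CPM in treated jj pups. Its log2 difference was 0.00077, with a 95% interval of -0.14 to 0.14. Pcna (ENSRNOG00000021264), whose promoter holds none, stood at 60.2 ± 7.10 and 58.9 ± 3.79 CPM (log2 -0.030, interval -0.16 to 0.10). For both genes the interval leaves out the value measured for Mcm3.

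Since Pcna is read in the same libraries, the helicase can also be set against it without any scaling between libraries. Mcm3 gave 19.2, 19.6, 25.1, 19.6 and 15.1 reads per 100 Pcna reads in untreated jj and 14.9, 14.9, 12.4, 16.4 and 15.8 in treated jj pups. Here untreated jj 5 fell inside the treated range, and the other 4 untreated libraries lay above it. In Nj pups the same ratio was 19.3, 17.2, 20.5, 20.5 and 21.9 without light and 13.6, 13.5, 14.6, 13.2 and 13.7 with light. The treated Nj values lay close together and below every untreated Nj value. For Tyms the ratio to Pcna ran from 24.0 to 33.8 in untreated and from 27.2 to 30.7 in treated jj pups.

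**Figure D3:**
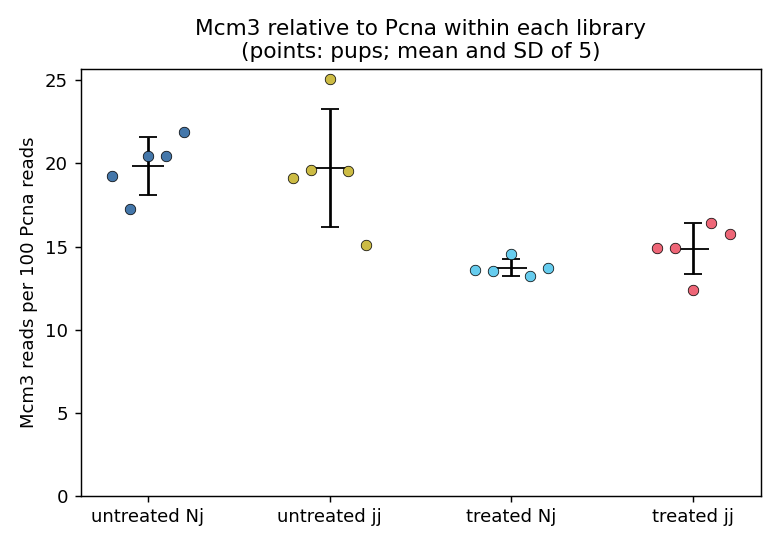
Mcm3 reads per 100 Pcna reads (vertical axis, from 0) in each of 20 libraries (points), by group, with the mean and SD of 5 pups. Values run from 13.2 to 14.6 in treated Nj pups and from 17.2 to 21.9 in untreated Nj pups, and untreated jj pups span 15.1 to 25.1.

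In Nj pups, the comparison by which the genes were picked, 9 of the 10 had lower mean levels with light, and only Pcna did not. Ranges did not overlap for Mcm2, Mcm3, Mcm6 and Rrm1, where 3.39 percent of all genes had treated ranges wholly below untreated ones. These counts follow from the choice of genes and are given as a description. Mcm3 had 12.4, 10.8, 12.7, 12.2 and 12.8 CPM in untreated Nj and 8.06, 8.23, 8.80, 8.35 and 8.80 CPM in treated Nj pups. Its log2 difference was -0.52 (SE 0.08). Rrm2 had 4.81, 5.21, 5.61, 4.41 and 4.90 CPM in untreated and 3.33, 2.77, 4.56, 3.50 and 3.44 CPM in treated Nj pups, where treated Nj 3 was the one library inside the untreated range (log2 -0.50, SE 0.13).

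Mcm5 had 11.8, 11.8, 9.75, 14.6 and 14.2 CPM in untreated and 11.1, 8.58, 9.42, 8.60 and 10.3 CPM in treated Nj pups (log2 -0.37, SE 0.10), with the widest relative spread of the ring in untreated Nj pups (coefficient of variation 16 percent). Mcm2 was tight in untreated Nj pups, at 20.2 to 21.4 CPM, and spread from 13.7 to 19.1 CPM in treated ones (log2 -0.34, SE 0.08). Mcm7 (log2 -0.29, SE 0.08), Mcm6 (-0.25, SE 0.06), Mcm4 (-0.19, SE 0.08) and Rrm1 (-0.097, SE 0.05) followed. Tyms (-0.062, SE 0.07) and Pcna (0.0045, SE 0.06) were again the flattest of the 10. Untreated Nj 2, of prefix J14, was the lowest of its group for Mcm3 (10.8 CPM), and untreated Nj 1 and the 3 libraries of prefix J15 lay between 12.2 and 12.8 CPM. Set against the J15 pups alone, treated Nj pups had a log2 difference of -0.57 for Mcm3.

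With 1 Nj library left out, the log2 difference of Mcm3 ran from -0.56 to -0.50, and it was -0.51 once the Ttr-rich libraries were dropped. Markers of other cell types differed with light in Nj pups as well, where 2.51 percent of all genes passed as lower and 1.49 percent as higher. Sums of the 6 markers of immature neurons ran from 6118 to 6527 CPM without light and from 5283 to 6078 CPM with it, with no overlap. Sox11 and Tubb3 fell (log2 -0.48 and -0.32, edgeR adjusted p = 0.00821 and 0.00875). The other 4 did not pass, and of these Stmn2 was positive (2816 ± 117 and 2882 ± 95.5 CPM, log2 0.033). Of the 8 progenitor markers all 8 had negative differences and Nes fell (log2 -0.55, adjusted p = 0.00596), with overlapping sums of 597.5 to 910 and 581 to 707 CPM. Of the 6 microglial markers P2ry12, Aif1 and Ctss rose (log2 0.58, 0.39 and 0.37, adjusted p = 0.00267, 0.0486 and 0.028). In jj pups 0 genes of these 3 lists passed, where 0.124 percent of all genes passed as lower and 0.0393 percent as higher. The part of these cell types in the differences of the 10 genes was not tested.

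The order of the genes was much alike in both genotypes, apart from Mcm5 (log2 -0.096 in jj and -0.37 in Nj pups). The 2 comparisons share no library, but both treated groups carry prefix J18. The genes were picked with results of these data known, so the likeness is not an independent repeat. Mcm3 and Rrm2 had the most negative differences in each, and Pcna and Tyms the smallest. Across the 10 genes the log2 differences had a Pearson r of 0.87 and a Spearman rho of 0.78, a description over genes measured in the same libraries. The median over the 10 was -0.16 in jj and -0.27 in Nj pups, beside -0.00072 and 0.00093 over all genes tested. Summed over Mcm2 to Mcm7, treated jj pups ran from 126.5 to 148.8 CPM and untreated jj pups from 152.6 to 167.1 CPM. In Nj pups the sum ran from 131.4 to 152.2 CPM with light and from 160.9 to 174.5 CPM without it.

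**Figure D4:**
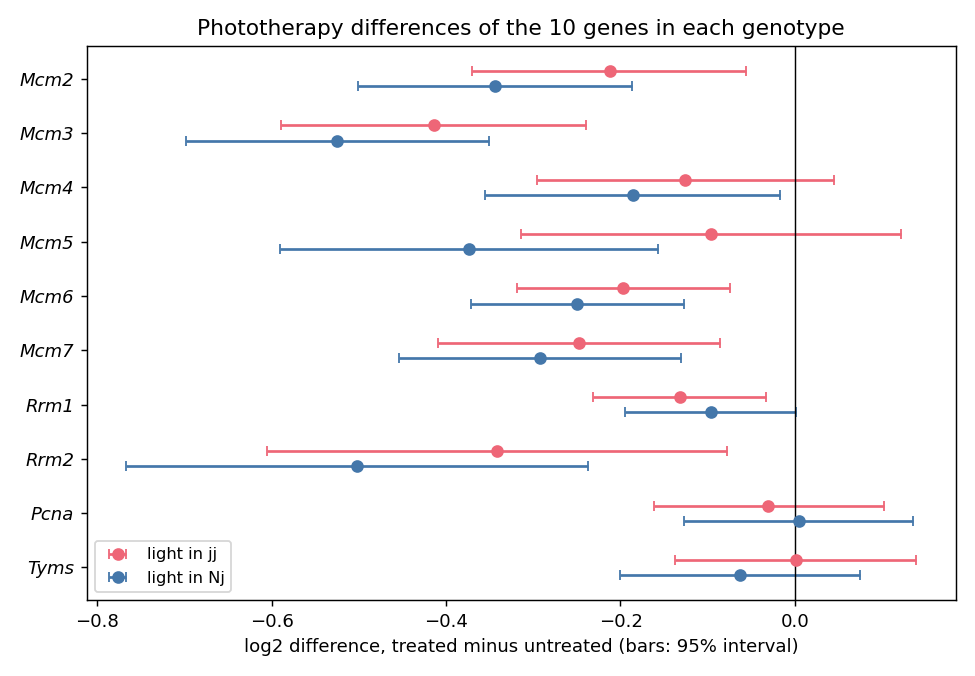
Log2 difference, treated minus untreated (horizontal axis), for each of the 10 genes in jj and in Nj pups, with bars for the 95% interval. In both genotypes Mcm3 lies farthest below 0, at -0.41 and -0.52, and Pcna and Tyms lie at 0 within their intervals.

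The light difference in jj minus that in Nj pups, the interaction, asks whether light acted differently in the genotypes. It contains the Nj comparison by which the genes were picked, so no test of the 10 is given. It also takes in both untreated groups, which differ in title prefix as well as in genotype. Of all genes 0 percent passed by edgeR, with 521 at an unadjusted p under 0.05 and 0 by DESeq2. Mcm3 differed between the genotypes by 0.11 (SE 0.12), Rrm2 by 0.16 (SE 0.18) and Pcna by -0.035 (SE 0.09) on the log2 scale. Mcm5 had the widest gap, 0.28 (SE 0.15).

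Between genotypes without light, the levels of all 10 genes overlapped. The jj minus Nj log2 differences ran from -0.17 for Mcm4 (41.0 ± 5.10 against 46.0 ± 2.81 CPM, SE 0.08) to 0.075 for Rrm2 (5.25 ± 0.71 against 4.99 ± 0.45 CPM, SE 0.13). Mcm3 differed by -0.059 (SE 0.08), with 11.7 ± 1.07 CPM in jj and 12.2 ± 0.79 CPM in Nj pups. These libraries include the untreated Nj pups that helped pick the genes, and no test of the 10 is given. Of all genes 0 percent passed in this comparison by edgeR, with 972 at an unadjusted p under 0.05 and 1 call by DESeq2.

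Among treated pups, which carry 1 title prefix, jj minus Nj log2 differences ran from -0.11 for Mcm4 to 0.24 for Rrm2, which stood at 4.14 ± 0.47 CPM in jj and 3.52 ± 0.65 CPM in Nj pups (SE 0.13). Mcm3 stood at 8.75 ± 0.96 and 8.45 ± 0.34 CPM, a difference of 0.051 (SE 0.08). Mcm2 differed by 0.12 and Mcm5 by 0.14 (SE 0.08 and 0.10). Here too 0 percent of all genes passed by edgeR, with 1011 at an unadjusted p under 0.05 and 2 calls by DESeq2. Treated Nj pups are shared with the comparison that picked the genes, and the 10 are again given with no test.

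The rest of the replication machinery gave 0 calls in jj pups. Of all genes, 0.124 percent passed there as lower and 0.0393 percent as higher. At shares so small a list of such length can hold 0 calls whatever its genes do. Nothing is read from the 0, here or for the lists below. Among 27 genes of origin licensing and helicase activation, 0 passed and the median log2 difference was -0.019. Timeless, a fork protection protein, stood at 10.8 ± 1.23 and 8.75 ± 0.96 CPM (log2 -0.31, SE 0.09, edgeR adjusted p = 0.149). Cdt1, the loader of the Mcm ring, stood at 5.13 ± 0.45 and 4.30 ± 0.67 CPM (log2 -0.25, adjusted p = 0.395). In Nj pups 2 of the 27 fell, Timeless (log2 -0.44, adjusted p = 0.0121) and Cdt1 (log2 -0.45, adjusted p = 0.0403), where 2.51 percent of all genes fell, and the list median was -0.080.

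Of 29 measured genes of polymerases, clamp loader and fork, 0 passed in jj pups, with a median of -0.11, and 4 fell in Nj pups, where 2.51 percent of all genes fell, with a median of -0.064. Dnmt1, which copies DNA methylation onto the new strand, had 98.4, 103, 104, 97.8 and 98.3 CPM in untreated and 91.1, 82.4, 78.7, 92.3 and 80.4 CPM in treated jj pups. The groups did not overlap, yet it did not pass (log2 -0.24, SE 0.05, edgeR adjusted p = 0.0653), and in Nj pups it fell from 104 ± 5.83 to 82.2 ± 5.79 CPM (log2 -0.34, adjusted p = 0.00206). Uhrf1, the partner that brings Dnmt1 to replicated DNA, had a log2 difference of -0.35 in jj (adjusted p = 0.117) and fell by 0.48 on the log2 scale in Nj pups (adjusted p = 0.00925). Pola2, a subunit of the priming polymerase, had -0.24 in jj (adjusted p = 0.218) and fell by 0.44 in Nj pups (adjusted p = 0.00822). The other gene called in Nj pups, Pold2, a subunit of DNA polymerase delta, fell by 0.23 on the log2 scale (adjusted p = 0.045). Treated ranges lay wholly below untreated ones in jj pups for 4 of the 29 (Dnmt1, Pold2, Pole and Rfc3, with log2 differences from -0.15 to -0.26), against the 1.69 percent of all genes. Dna2 was not used here.

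Nucleotide synthesis and salvage beyond the 10 genes had list medians near 0. Of 25 genes, 0 passed in jj pups (median log2 -0.027), and in Nj pups 1 fell, a share near the 2.51 percent of all genes, and the median was 0.045. The gene is Cad, the enzyme that starts pyrimidine synthesis, at 66.8 ± 8.25 and 54.6 ± 6.42 CPM in Nj pups (log2 -0.29, edgeR adjusted p = 0.0466) and at 62.3 ± 3.87 and 55.1 ± 3.89 CPM in jj pups (log2 -0.18, adjusted p = 0.363). Nme2, a nucleoside diphosphate kinase, and Ctps1, a CTP synthase, differed by -0.028 and -0.040 in jj pups (adjusted p = 0.905 and 0.747).

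Of 25 measured E2F factors, pocket proteins and regulators of entry into S phase, 0 passed in either genotype, with medians of -0.067 in jj and -0.071 in Nj pups. Cdk4, the cyclin D kinase, had treated values wholly below untreated ones in jj pups (109 ± 6.73 and 95.7 ± 4.63 CPM, log2 -0.18, edgeR adjusted p = 0.0903), and Ccnd2, a cyclin D, differed by -0.067 (adjusted p = 0.625). The point far to the left in both panels of the plot of lists is Cdkn1c, a CDK inhibitor, with -0.79 in jj and -0.69 in Nj pups, an SE of 0.42 in each and adjusted p of 0.443 and 0.43. E2f1 was not used here. Of 16 measured mitotic genes, 0 passed in jj pups (median -0.12) and 2 fell in Nj pups, again where 2.51 percent of all genes did (median -0.18), Tpx2, a spindle assembly factor (log2 -0.28, adjusted p = 0.0396), and Mki67, the marker of cycling cells (log2 -0.28, adjusted p = 0.0405). In jj pups Mki67 had 33.2, 35.9, 33.7, 39.3 and 38.9 CPM without light and 30.9, 33.1, 30.1, 27.5 and 28.1 CPM with it (log2 -0.27, adjusted p = 0.12), groups that met without overlapping. Treated ranges lay wholly below untreated ones in jj pups for 1 of the 25 (Cdk4) and 1 of the 16 (Mki67), against 1.69 percent of all genes. These lists were fixed with earlier results of these data known.

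**Figure D5:**
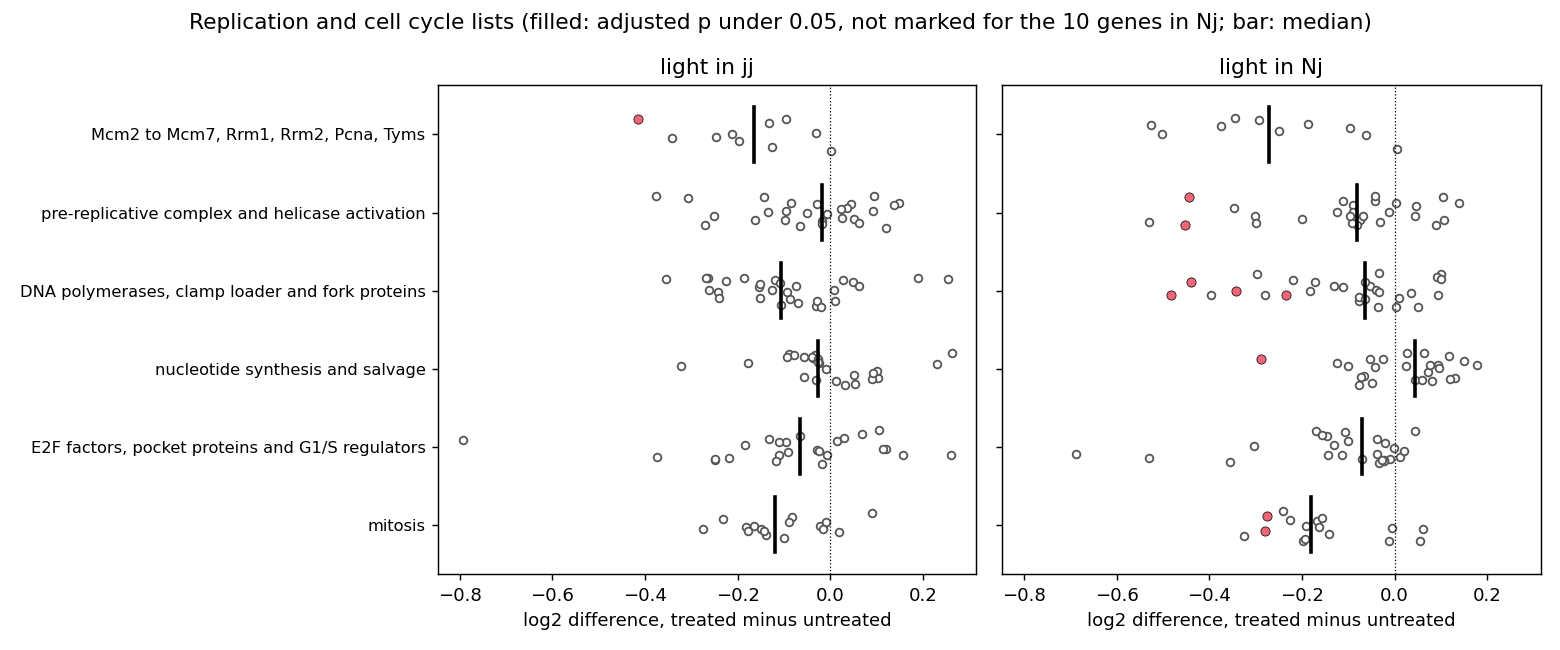
Log2 difference, treated minus untreated (horizontal axis), of each measured gene (circles, spread vertically at random) in the 10 genes and in 5 lists, for jj pups on the left and Nj pups on the right. Filled circles passed an adjusted p of 0.05, which is not marked for the 10 genes in Nj pups, and bars mark medians, which lie at -0.16 and -0.27 for the 10 genes.

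Within groups the 10 genes did not move as one. After the mean of each group was taken away, the 45 pairs had a median Pearson r of 0.17 over the 20 libraries and ran from -0.37 for Mcm2 with Pcna to 0.74 for Mcm4 with Pcna. Among the 15 pairs of ring subunits the median was 0.24 and the range -0.11 to 0.49, and Mcm2 went most closely with Rrm2 (0.67). The points share libraries, depth and scaling, and the values are a description. Mcm4 had the most negative r with Ttr (-0.57) and the most positive with the log2 library total (0.56), where Mcm3 had 0.27 and -0.072. The r with Ttr was also negative for Mcm6 (-0.46), Mcm7 (-0.45), Rrm1 (-0.44), Pcna (-0.36), Mcm5 (-0.26) and Rrm2 (-0.18). It was positive for Tyms (0.23) and Mcm2 (0.10), and the mean of the standardized 10 had -0.43.

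Outside the 10, the genes whose centred levels followed the mean of the standardized 10 most closely over the 20 libraries, among 13217 genes, were Dtl (r = 0.82), Yju2 (0.80), LOC100359574 (0.80), Zbtb46 (0.78), Nfib (0.78) and Dcc (0.76). None of these 6 passed the edgeR test in jj pups, with log2 differences from -0.28 for Dcc (adjusted p = 0.124) to 0.020 for Dtl (adjusted p = 0.965).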

How the data were processed

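PolyA libraries of hippocampus from 20 pups, 5 per group, were analysed from the authors' deposited table of raw read counts, 1 column per library, with no normalization. Per the submitters' processing notes, FastQC, TopHat2 2.0.13, Subread and edgeR were used. The build named there is mm10, of the mouse, while gene identifiers in the table are rat ones. Rat annotation and strand setting are not given in the sources used here, and reads of overlapping genes cannot be told apart. Promoters come from RefSeq (GRCr8).

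Genes were filtered with filterByExpr, scaled by TMM and fitted in edgeR 4.0.16 (R 4.3.3) with all 20 libraries and a mean per group, using the robust quasi-likelihood test, two-sided, with Benjamini-Hochberg adjustment over 15272 genes and a threshold of 0.05. CPM use TMM-scaled totals, and intervals are 95%. DESeq2 1.42.0 was the second tool. The pipeline was tested on simulated data. The labels do not say whether pups of a group shared a litter, so p-values measure the spread between these pups. The genes and lists were chosen with earlier results of these data known. Of each list, up to 3 genes called in each light comparison with the lowest p were named, or, where fewer than 2 were called, also the 2 with the highest CPM; for likeness, the 6 genes with the highest r. Pold2, Pole, Rfc3, Cdkn1c and the marker genes with values were named after their values were seen. Alternatives were DESeq2 size factors in edgeR, no filter or one on a mean count of 10, DESeq2 itself, the compared groups alone, untreated Nj of prefix J15, no Ttr-rich libraries, and leaving out each library.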

Additional observations from a re-analysis of the deposited data

How the results depend on the processing

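In jj pups the light comparison called 25 genes, 271 by DESeq2, 3 in a fit of the jj groups alone and 0 without the Ttr-rich libraries. Mcm3, the 1 gene of the 10 that was called, was not called with no count filter (log2 -0.41, adjusted p = 0.0511), in the jj groups alone (-0.41, 0.136) or without the Ttr-rich libraries (-0.48, 0.464), which gave 0 of the 10 each. DESeq2 called it (adjusted p = 0.00428). With 1 library left out, 0 to 43 genes and 0 to 1 of the 10 were called, with 0 genes without untreated jj 4 or treated jj 2, 3 or 5, 5 without treated jj 4 and 16 without untreated jj 1, and with 39 without untreated jj 3 and 43 without treated jj 1. In Nj pups 611 genes were called, 1009 by DESeq2 and 112 without the Ttr-rich libraries. The 10 genes were picked by this comparison, so their calls in it are not given. With 1 Nj library left out, 152 to 651 genes were called. The count was 152 without untreated Nj 4, 159 without untreated Nj 5, 253 without treated Nj 5 and 272 without treated Nj 2. The jaundice comparisons gave 0 calls by edgeR and 1 (untreated) and 2 (treated) by DESeq2, and each of these and the interaction gave 0 to 1 with 1 library left out. Of 320 log2 differences of the 10 genes under settings other than leaving out 1 library, 317 moved by less than the spread between pups, whatever became of a call. The other 3 moved further and changed sign, all without the Ttr-rich libraries. Mcm2 between treated groups went from 0.12 to -0.087. In the interaction Mcm2 went from 0.13 to -0.055 and Rrm2 from 0.16 to -0.092. The cause was not tested. DESeq2 size factors shifted the median of all genes by at most 0.0057 on the log2 scale. Depth limits Rrm2 most, with 63 to 133 reads per library. No paired analysis was possible because the labels link no pup of a group to a pup of another.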
